A study of Mus musculus with 6 samples.

Results

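Mast cell proteases and receptors were examined in mouse pancreatic islets as a set of 7 genes: the chymases Mcpt4 and Cma1, the carboxypeptidase Cpa3, the tryptase Tpsb2, the IgE receptor chains Fcer1a and Ms4a2, and the histamine-forming enzyme Hdc. The genes were taken by name, as array probes whose accession is a RefSeq transcript of the gene; this gave 8 of the 39429 probes on the array, 2 of them for Tpsb2. Mcpt4 was selected on its level at ZT8, which stood far above most other arrays, so that level is a description here and was not tested. The other members were chosen as mast cell genes, with earlier results of these data known. Of the 7 genes, 5 were among the 24127 genes tested, those whose probe was bright enough to count as detected on 3 or more of the 6 arrays.

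The islets came from male C57BL6 mice aged 8 weeks fed chow, and were isolated with collagenase at zeitgeber times ZT0, ZT4, ZT8, ZT12, ZT16 and ZT20. The mice had 12 h of light, from ZT0, and then 12 h of darkness. RNA of 3 to 5 mice was pooled per time, labelled with Cy3 and put on 1 Agilent array, so no time point had a replicate and no test between time points was possible. The arrays from ZT8 to ZT20 were scanned together, and those of ZT0 and ZT4 each on their own. ZT0 was also scanned on another day than all other arrays. The ZT0 array had 1743 spots marked as outliers, against 166 to 247 on the other arrays, and 0 spots were saturated. Well above background were 84.4% of spots at ZT0, 80.3% at ZT8, 66.1% at ZT4 and 70.8% to 75.3% on the others. The 75th percentile of the processed (background-subtracted) signal was 1976 at ZT0, 2090 at ZT8, 506 at ZT4 and 1229 to 1657 on the others. ZT0 and ZT8 were thus the brightest arrays and ZT4 the dimmest. The part of array brightness in the levels below was not tested. Of 12 islet endocrine markers 11 were tested, with Ins1, which encodes insulin, well above background on all 6 arrays.

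Mast cells are tissue-resident immune cells of the connective tissue and mucosa. They store granules packed with chymases, tryptases, carboxypeptidase A3, histamine and heparin, and release them when IgE bound to the high-affinity receptor FcεRI meets its antigen. Connective tissue mast cells of the mouse carry Mcpt4, Cma1, Cpa3 and Tpsb2, whereas mucosal mast cells carry Mcpt1 and Mcpt2. In whole islet preparations, fewer cells of a type and less RNA per cell cannot be told apart.

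GATA2 and MITF are transcription factors that mast cell genes depend on, so the promoter windows of the members were read for short motifs. RefSeq windows on GRCm38.p6, from 250 bases before to 50 after the gene start, were matched for 6 of the 7 members, all but Tpsb2. They are shown for Mcpt4, Cpa3 and Fcer1a, which were high at ZT0 and ZT8, for Cma1, which was high at ZT8, and for Hdc, which was highest on other arrays, 5′ to 3′ on the strand of the gene, with capitals marking GATAA or its reverse complement TTATC.
Mcpt4, chr14:56062261-56062560, minus strand: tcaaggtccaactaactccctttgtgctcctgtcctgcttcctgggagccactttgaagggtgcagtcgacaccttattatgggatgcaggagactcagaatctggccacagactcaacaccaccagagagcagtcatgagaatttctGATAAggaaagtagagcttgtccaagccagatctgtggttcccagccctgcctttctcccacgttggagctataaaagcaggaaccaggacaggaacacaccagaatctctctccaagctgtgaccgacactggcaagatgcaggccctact
Cma1, chr14:55944626-55944925, minus strand: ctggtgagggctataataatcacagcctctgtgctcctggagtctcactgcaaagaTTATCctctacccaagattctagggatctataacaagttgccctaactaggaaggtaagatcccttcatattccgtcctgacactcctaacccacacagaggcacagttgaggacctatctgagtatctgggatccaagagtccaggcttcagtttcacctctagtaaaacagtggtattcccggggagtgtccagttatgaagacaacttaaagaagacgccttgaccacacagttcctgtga
Cpa3, chr3:20242132-20242431, minus strand: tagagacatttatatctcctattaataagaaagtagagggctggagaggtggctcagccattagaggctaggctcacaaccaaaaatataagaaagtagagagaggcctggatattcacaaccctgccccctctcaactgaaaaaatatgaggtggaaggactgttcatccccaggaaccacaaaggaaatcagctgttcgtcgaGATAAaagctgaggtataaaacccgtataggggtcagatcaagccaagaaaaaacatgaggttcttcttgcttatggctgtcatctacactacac
Fcer1a, chr1:173227180-173227479, minus strand: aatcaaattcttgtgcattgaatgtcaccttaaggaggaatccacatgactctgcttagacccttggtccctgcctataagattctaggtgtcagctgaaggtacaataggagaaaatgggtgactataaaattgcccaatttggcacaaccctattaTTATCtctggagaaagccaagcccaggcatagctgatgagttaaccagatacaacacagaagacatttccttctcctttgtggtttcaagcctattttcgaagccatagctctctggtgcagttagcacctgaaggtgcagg
Hdc, chr2:126618629-126618928, minus strand: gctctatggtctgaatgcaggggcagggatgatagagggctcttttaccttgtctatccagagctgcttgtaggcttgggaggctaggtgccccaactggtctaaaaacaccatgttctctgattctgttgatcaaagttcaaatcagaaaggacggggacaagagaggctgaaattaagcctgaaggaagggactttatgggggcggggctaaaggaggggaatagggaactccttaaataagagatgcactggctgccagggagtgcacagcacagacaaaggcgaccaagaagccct

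The GATA motif GATAA began at position -102 from the start of Mcpt4 and at -45 in Cpa3. On the reverse strand it began at -194 in Cma1 and at -92 in Fcer1a. The window of Ms4a2 held 3 copies and that of Hdc held 0, so 5 of the 6 windows held at least 1. Of 32851 RefSeq windows of this length, 25.4% held at least 1 copy on either strand. The E-box CACATG, a form that MITF can bind, was in the window of Fcer1a and in 14.2% of all windows, and CACGTG was in none of the 6 and in 7.15% of all. Forms of the GATA motif other than GATAA were not searched for. A match is a description of the letters and not of binding.

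Mcpt4, Cpa3 and Tpsb2 had high levels on 2 arrays, ZT0 and ZT8, and low levels on ZT4 between them, while Cma1 was clearly high at ZT8 alone. Levels are given as the log2 processed signal after subtraction of the array's own 75th percentile, so that 0 is the brightness of a probe at that percentile. Mcpt4, the main chymase of mouse connective tissue mast cells, had levels of 0.10, -3.41, 0.70, -2.51, -3.96 and -3.47 in time order, with ZT0 first and ZT20 last. It was well above background on all 6 arrays, with processed signals of 2113 at ZT0 and 3404 at ZT8 but 47.5 at ZT4 and 79.1 at ZT16. ZT8 and ZT0 were thus far above the other 4 arrays. The level at ZT8 was 17.3-fold the median of the other 5 arrays, 25.3-fold the ZT16 level and 1.52-fold the ZT0 level. That last difference was 0.61 log2 units against a scanner error of 0.20, the error that the extraction software gave to the spots. The spread between pools could not be measured.

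Cpa3, which encodes the carboxypeptidase of mast cell granules, had levels of -2.00, -3.69, -1.52, -2.91, at most -5.18, and -4.02 in the same order. The ZT16 spot missed the detection limit, and its value is an upper limit. Its order of arrays was that of Mcpt4: ZT8, ZT0, ZT12, ZT4, ZT20 and ZT16. The ZT8 level was 4.52-fold the median of the other 5 and 1.40-fold the ZT0 level, a difference of 0.49 with a scanner error of 0.20.

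Cma1, the chymase also called mMCP-5, was dim. It stood at -4.87 at ZT0, -3.59 at ZT8 and -5.14 at ZT12, and its spots at ZT4, ZT16 and ZT20 missed the detection limit. Such a spot was given as its upper limit its own level or that of the dimmest detected probe of the array, whichever was higher. With these limits the ZT8 level was at least 2.93-fold the median of the other 5 arrays, and it was 2.43-fold the ZT0 level. At ZT0 Cma1 was only 0.11 log2 units above the highest limit or level of ZT4, ZT12, ZT16 and ZT20, within its scanner error of 0.16. With background fitted by normexp (a model of the local background) and quantile normalization, its ZT8 difference was 0.68 log2 units, under 2-fold.

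Tpsb2, which encodes the tryptase mMCP-6, had 2 probes, and on both ZT0 was highest and ZT8 next. The brighter probe had levels of 3.12, -1.49, 0.50, -1.43, -0.66 and -0.27, with ZT0 first and ZT20 last. The dimmer had -2.89, at most -4.97, -3.82, -4.69, -4.88 and -4.83. The ZT8 level was 2.23-fold the median of the other 5 arrays on the brighter probe and 2.02-fold on the dimmer. At ZT0 the same comparison gave 13.8-fold and 3.85-fold, so the probes differed in how far ZT0 stood apart. Tryptase genes are close in sequence, and whether these probes read only Tpsb2 was not tested. With array medians in place of the 75th percentile, under which the median of all genes at ZT8 was -0.27, against -0.08 with the percentile, the brighter probe was 0.93 log2 units above at ZT8.

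**Figure D1:**
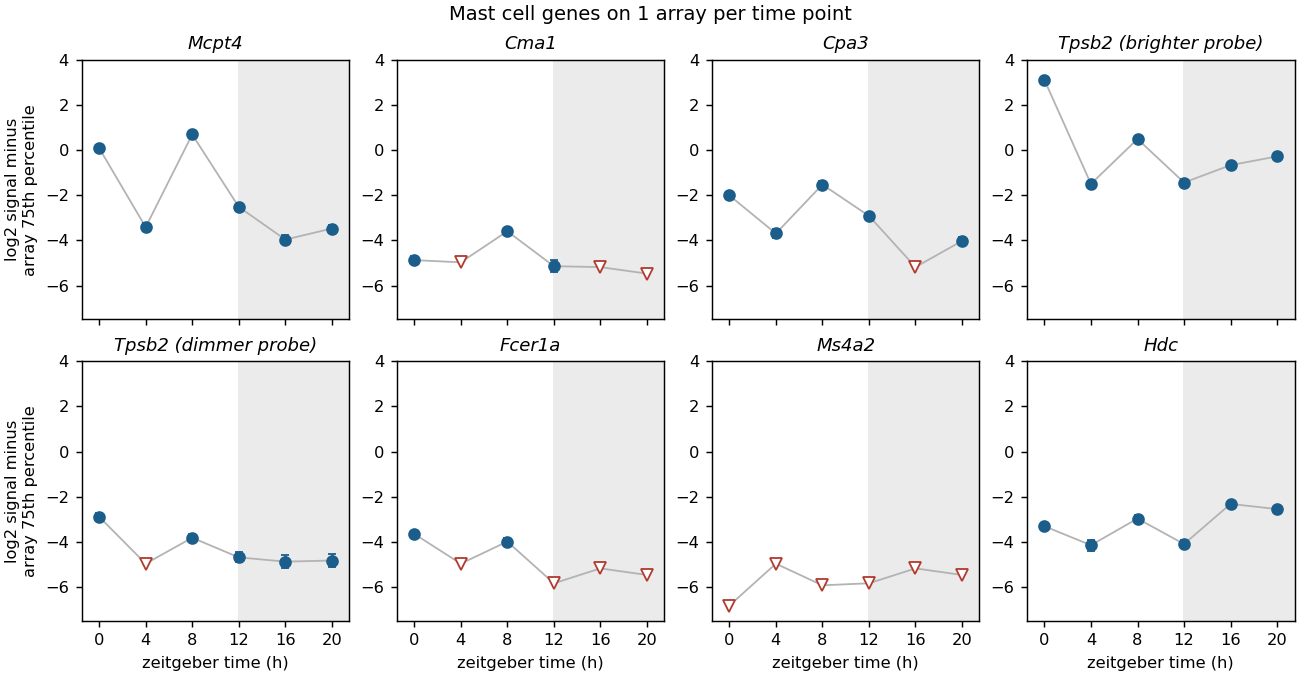
Level of each mast cell gene probe (log2 processed signal minus the array's 75th percentile) against zeitgeber time in h, with 1 array of pooled islet RNA per time and the dark phase shaded. Filled points with bars are spots well above background and their scanner error; open triangles are upper limits. Mcpt4, Cpa3, Fcer1a and both Tpsb2 probes are highest at ZT0 and ZT8, with Mcpt4 at 0.10 and 0.70, while Cma1 stands out at ZT8 alone with -3.59 and Hdc is highest at ZT16 with -2.32.

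Of the receptor genes, Fcer1a was detected on 2 arrays and Ms4a2 on none. Fcer1a, the IgE-binding chain of FcεRI, stood at -3.65 at ZT0 and -3.99 at ZT8, with processed signals of 158 and 132. On the ZT4, ZT12, ZT16 and ZT20 arrays it was not well above background, with processed signals of 3.50 to 26.4. The ZT8 level was at least 2.28-fold the median of the other 5 arrays. Fcer1a did not meet the detection rule of 3 arrays and is in no count below except the one made without a background filter. It could be seen only where it was high. Ms4a2, the signal-amplifying beta chain, was not well above background on any array, so its course is unknown.

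Hdc, histidine decarboxylase, followed another course. Its levels were -3.31, -4.15, -2.97, -4.10, -2.32 and -2.55 from ZT0 to ZT20, and all 6 spots were well above background. Its highest arrays were ZT16 and ZT20, where Mcpt4 and Cpa3 were lowest, and its ZT8 level was 1.26-fold the median of the other 5 arrays. Within the scan that ZT8 shared with ZT12, ZT16 and ZT20 the Hdc difference at ZT8 was -0.42 log2 units. Its promoter window was the 1 of the 6 windows without the letters GATAA. It does hold GATAG, and forms other than GATAA were not searched for. Any link between the window and this course was not tested.

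At ZT8, Mcpt4, Cma1, Cpa3 and Tpsb2 were at least 2-fold above the median of the other 5 arrays, which is 4 of the 5 members tested. This count describes the members and supports nothing further, since Mcpt4 was selected on its ZT8 level and Cma1, detected on 3 arrays, passed the detection rule through ZT8. Without both, it held for Cpa3 and Tpsb2 and not for Hdc. Over all 24127 genes tested the share was 7.41%. At least 2-fold below were 0 of the 5 members and 1.82% of all genes. The median difference at ZT8 over all genes tested was -0.08 log2 units. By the size of this difference Mcpt4 ranked 10, Cpa3 132, Cma1 549, Tpsb2 1293 and Hdc 6263 from the top of all genes tested. Against the arrays of the same scan alone the count was again 4 of 5, beside 11.7% of all genes, and Mcpt4 was 18.1-fold, Cpa3 5.69-fold, Cma1 at least 3.01-fold and Tpsb2 2.23-fold above. Without the ZT0 array it was also 4 of 5, beside 7.1% of all genes.

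ZT0 and ZT8 were the 2 highest arrays for 4 of the 5 members tested, the exception being Hdc, and for 5.13% of all genes tested. For Cma1 the ZT0 level lay within its scanner error of the next array. This pairing was noticed in the members' values and was not tested. It held for Mcpt4, Cpa3 and Tpsb2 under the 5 other scalings and value sources compared, and for Cma1 under 2 of them: with quantile normalization, median scaling or the authors' values, the upper limit at ZT4 and the level at ZT12 passed Cma1's ZT0 level. The authors' values of the members were nearly those of quantile normalization, so these are not separate checks. At ZT0, 3 of the 5 members were at least 2-fold above the median of the other arrays, beside 15.9% of all genes. Mcpt4, Cma1 and Cpa3 had their highest level on the ZT8 array, as did 5.89% of all genes tested. Here, as in the pairing count, Mcpt4 was selected on its ZT8 level and Cma1 passed the detection rule through ZT8. That leaves Cpa3 for the highest level at ZT8.

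**Figure D2:**
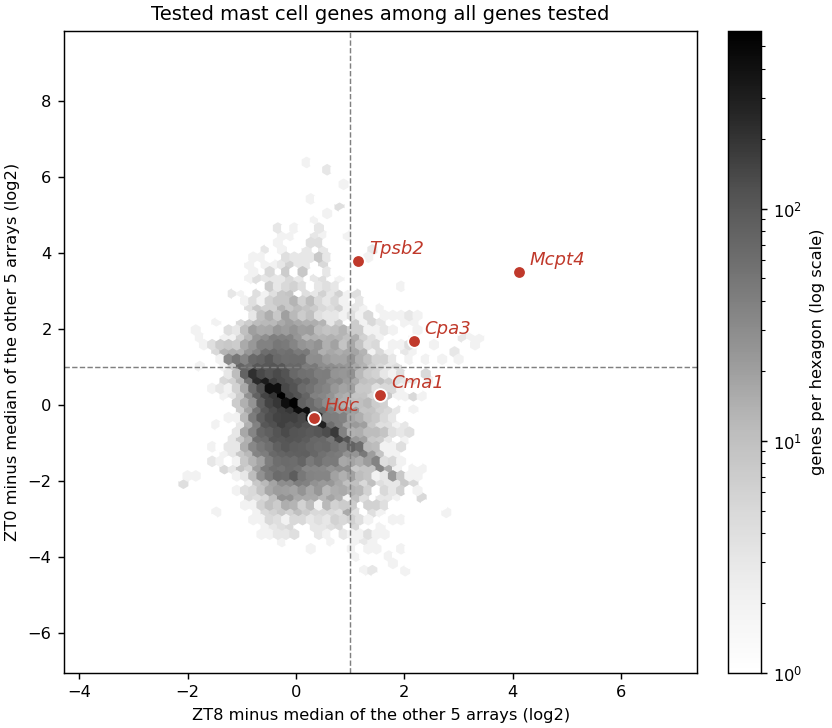
Level at ZT8 (horizontal) and at ZT0 (vertical) minus the median of the other 5 arrays, in log2 units, for all 24127 genes tested (grey hexagons, shaded by number on a log scale) and the 5 tested mast cell genes (red). Dashed lines mark 2-fold. Mcpt4 and Cpa3 lie past 2-fold on both axes at 4.11 and 2.17 on the ZT8 axis, and Hdc lies near the centre; the dark diagonal arises by construction, from genes for which ZT0 and ZT8 are the 2 middle arrays.

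To look for a daily rhythm, limma was used with cosine and sine terms of 24 h. Such a curve has 1 peak a day. Spots that missed the detection limit entered these fits with their own dim values and not with the upper limits given above. These values were -6.02 at ZT4, -6.05 at ZT16 and -5.92 at ZT20 for Cma1, and -5.26 at ZT16 for Cpa3. For Mcpt4 the fitted peak minus trough was 2.78 ± 1.76 (SE) log2 units with a peak at ZT5.27. That time lies nearest the ZT4 array, where Mcpt4 was low at -3.41, so it is not the time of a measured high. For Cpa3 the fitted peak minus trough was 2.37 ± 1.20, with an unadjusted limma p of 0.211 and an adjusted p of 0.754. Tpsb2 had 2.50 ± 1.53 with an adjusted limma p of 0.754, Cma1 1.49 ± 1.0 with 0.761, and Hdc 1.30 ± 0.87 with 0.759. The limma fit called 0 of 24127 genes (0%) after adjustment, and 966 (4%) had an unadjusted p under 0.05, none of them a member. Single arrays moved these fits by over 1.5 times. Without ZT4 the peak minus trough was 6.20 for Mcpt4, 4.34 for Cpa3, 4.53 for Tpsb2 and 2.76 for Cma1. The adjusted limma p there was 0.776 for Cpa3 and Tpsb2. Cma1 passed the detection rule through ZT8, so its fits are descriptions. ZT0 and ZT4 were each alone in a scan, so with scan as a covariate the curve rested on the arrays from ZT8 to ZT20 alone. In that fit the peak minus trough was 5.80 for Mcpt4, 4.22 for Cpa3 and 2.96 for Cma1. Without ZT8 it was 1.84 for Mcpt4, 0.29 for Cma1 and 2.36 for Hdc, and without ZT0 it was 0.056 for Tpsb2. Without ZT16 it was 1.32 for Cpa3.

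Few of the wider set of mast cell genes were as far above at ZT8. Of 57 further genes on 6 lists, which hold other granule genes, IgE receptor signalling, surface receptors, mediator enzymes, transcription factors and growth factors, 49 were tested. At ZT8, 4 of these were at least 2-fold above the median of the other arrays (8.16%, beside 7.41% of all genes) and 1 was at least 2-fold below. Their median difference was 0.02 log2 units. Against the arrays of the same scan alone 19 of the 49 were at least 2-fold above, beside 11.7% of all genes, and without the ZT0 array 7 were.

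The 4 genes above were Lat, Vav1 and Lcp2, adaptors and an exchange factor of antigen receptor and FcεRI signalling that T cells also use, and Runx1, a blood cell transcription factor. Lat stood at -0.70, 1.87, 0.48, 2.36, -4.03 and -4.02 from ZT0 to ZT20. Vav1 stood at 1.1, 4.83, 2.27, 4.26, -0.91 and -0.95. All 4 were higher at ZT4 and ZT12 than at ZT8, unlike the mast cell proteases. The lymphocyte markers were likewise high at ZT4 and ZT12, with medians of 2.09 at ZT4, 0.79 at ZT8, 2.17 at ZT12 and -3.02 at ZT16 as deviations from each gene's mean. Of 12 IgE receptor signalling genes tested, 6 were highest at ZT4 and 5 at ZT12, beside 24.2% and 16.3% of all genes. Fcer1g, the gamma chain that FcεRI shares with other Fc receptors, stood at 1.14, 4.37, 2.48, 4.06, 1.20 and 1.52 from ZT0 to ZT20. The gene below was Ltc4s, leukotriene C4 synthase, at -0.53 at ZT8 against 2.40 at ZT4.

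Among the surface receptors, 0 of 8 tested differed at ZT8 by 2-fold or more from the others' median. Kit, the stem cell factor receptor of mast cells, stood at 0.62, -0.79, 0.05, 1.0, -2.28 and -1.23 from ZT0 to ZT20, highest at ZT12 and lowest at ZT16. Its ZT8 level was 1.79-fold the median of the others. Il1rl1, the interleukin-33 receptor, was at 0.47 at ZT0 and -2.20 at ZT8. Mrgprb2, the connective tissue mast cell receptor for basic peptides, stayed between -4.61 and -4.26 on the 5 arrays that detected it. Cd63 and Csf2rb, which many cell types use, were 0.79-fold and 1.84-fold the median of the others.

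The other granule genes gave 0 of 8 at least 2-fold from the median at ZT8. The mucosal mast cell proteases differed from Mcpt4: Mcpt1 was highest at ZT12, at -3.69, and Mcpt2 at ZT0, at -2.60, with -5.82 and -5.39 at ZT8. Srgn, the proteoglycan core of granules in many blood cells, stood at 5.89 at ZT4 and 3.99 at ZT8. For Ndst2, which modifies heparin, and the transcription factor Gata2, ZT0 and ZT8 were also the 2 highest arrays, 2 of the 49 genes (4.08%, beside 5.13% of all genes). They are named after their values were seen, and both differed little between ZT0, ZT8 and ZT12. Ndst2 stood at -1.15, -1.20 and -1.33 there and Gata2 at -1.57, -1.47 and -1.70.

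Histamine genes other than Hdc were Slc18a2, the vesicular monoamine transporter, and Hnmt, which degrades histamine. Slc18a2 was highest at ZT20 (-3.36) and ZT16 (-4.12), and Hnmt at ZT20 (-1.0) and ZT0 (-1.20). Islet endocrine markers had medians of 1.21 at ZT16 and 1.20 at ZT20 and of -1.54 at ZT4 and -2.41 at ZT12. On these arrays they were high and low where Hdc was high and low. At ZT0 and ZT8 their medians were 0.97 and 0.26, while Hdc stood lower at ZT0 (-3.31) than at ZT8 (-2.97). Their part in the Hdc course was not tested.

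**Figure D3:**
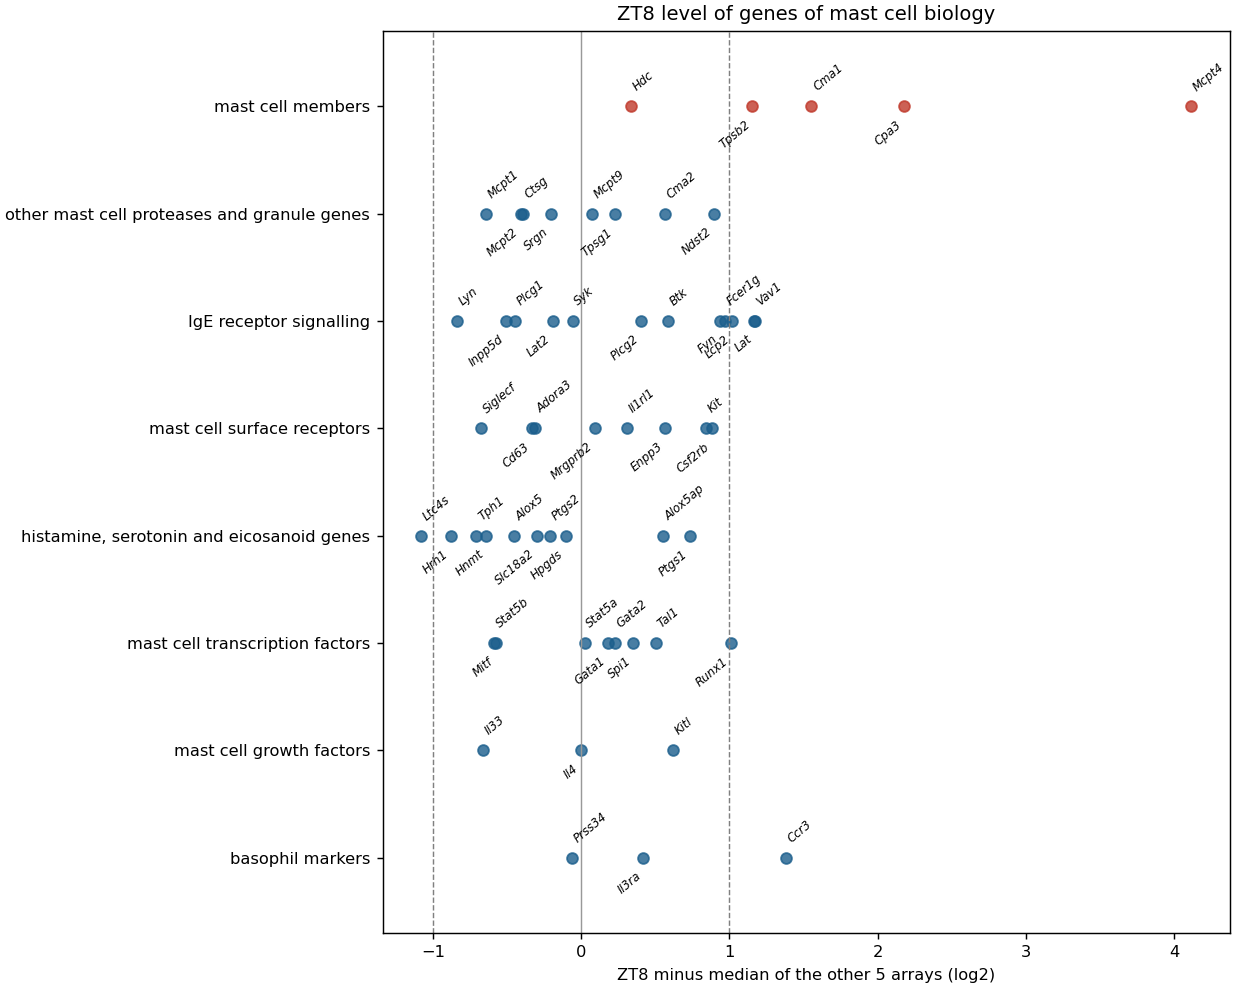
Level at ZT8 minus the median of the other 5 arrays, in log2 units, for each tested gene of the mast cell lists and of a basophil list (1 point per gene, 1 row per list, dashed lines at 2-fold). The members (red) reach 4.11 for Mcpt4, which was selected on its ZT8 level, while the other mast cell lists lie between -1.08 for Ltc4s and 1.17 for Lat.

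Markers of other cell types were read on the same arrays. Basophils, which share Fcer1a and Ms4a2 with mast cells, were read through Mcpt8, their own protease, which was not well above background on any array. The basophil protease Prss34 stood at -4.40 at ZT8 and -3.19 at ZT0, and Ccr3, a receptor of eosinophils and basophils, at -2.74 at ZT8 and -2.73 at ZT0, its highest arrays. Of 10 endothelial markers 5 were at least 2-fold above the median of the others at ZT8, beside 7.41% of all genes, with a list median of 1.11, and their summed level was 30.3 at ZT8 and 23.9 to 69.8 on the others. Of 12 stromal markers 0 were at least 2-fold above at ZT8 and 5 were at ZT0, beside 15.9% of all genes there, and their summed level was 206 at ZT8, 328 at ZT0 and 414 at ZT4. Of 11 macrophage markers tested 3 were at least 2-fold above at ZT8, with a list median of -0.03, and 4 of 12 lymphocyte markers were, with a list median of 0.45. The part of these cells in the mast cell levels was not tested. In none of these lists except the basophil markers (Ccr3) were ZT0 and ZT8 the 2 highest arrays of any gene. Over all genes tested the share was 5.13%, so lists this short would hold few or none in any case.

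**Figure D4:**
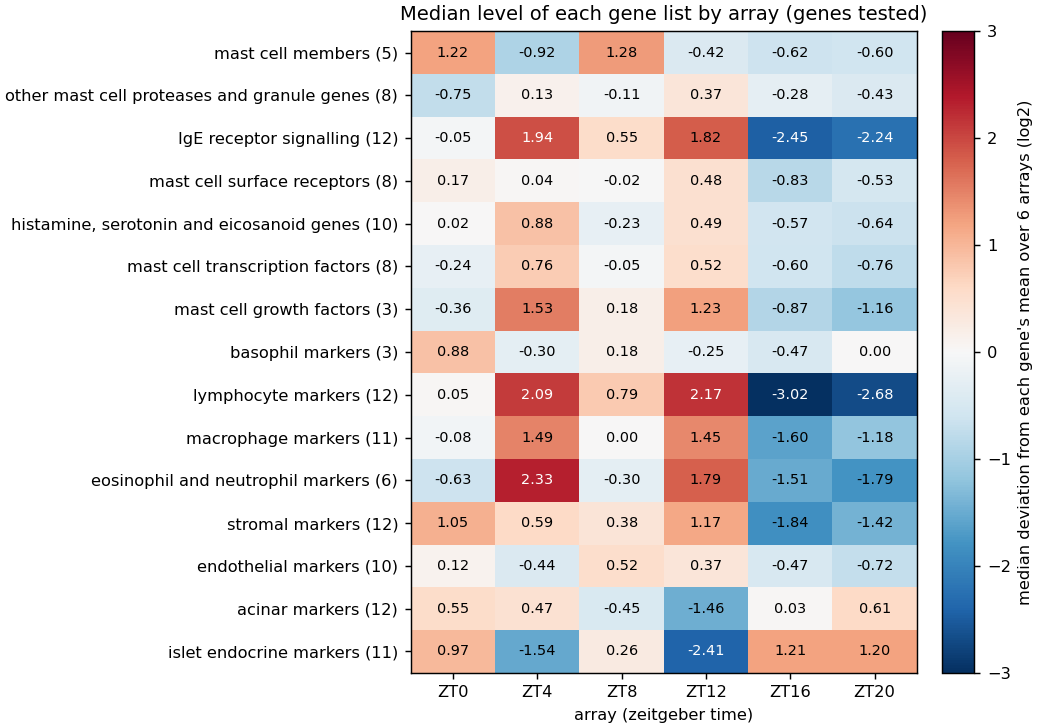
Median deviation of each gene list from each gene's own mean over the 6 arrays (log2, colour and printed value), by array, with the number of genes tested in parentheses. The 5 mast cell members are at 1.22 at ZT0 and 1.28 at ZT8 and at -0.92 at ZT4, whereas lymphocyte markers are at 0.05 at ZT0, 0.79 at ZT8 and 2.09 at ZT4. Of the members, Mcpt4 was selected on its ZT8 level and Cma1 passed the detection rule through ZT8. Without Mcpt4 the members are at 0.61 at ZT0, 0.91 at ZT8 and -0.70 at ZT4.

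The genes most like Mcpt4 over the 6 arrays, by Pearson's r among 8026 other genes with a symbol and a range of at least 2 log2 units, were Zfand6 (0.98), Etv3 (0.98), St3gal4 (0.98), Sfswap (0.97) and Hivep1 (0.96). For Cpa3 they were Rgs2 (0.98), Zfand6 (0.96), Cytl1 (0.96), St3gal4 (0.96) and Myh11 (0.95). These are descriptions over 6 points that share arrays and scaling. Where a spot missed the detection limit, its upper limit was used. Hivep1 and Cma1 were at such limits at ZT4, ZT16 and ZT20, and Sfswap at ZT4 and ZT16. The part of the limits in the likeness was not tested. Cpa3 itself had an r of 0.94 with Mcpt4 and ranked 24 among 11745 genes, Cma1 0.80 with rank 183, Tpsb2 0.72 with rank 334 and Hdc -0.06 with rank 6513. Zfand6 stood at -1.69, -3.54, -1.5, -2.64, -3.91 and -3.69 from ZT0 to ZT20. The smooth muscle myosin gene Myh11 stood at -2.73, -4.37, -1.11, -3.33, at most -5.18, and -4.63.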

How the data were processed

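Expression was measured on 1 Agilent 1-colour array per time point, 6 in all, and the 7 genes and all lists were chosen with earlier results of these data known. The deposited intensity values were made with Feature Extraction 11.0.1.1 of Agilent, per the file headers, the processed signal being background-subtracted and detrended, linear and not normalized between arrays; other columns hold flags of 0 or 1 and the software's error. The authors' deposited value table holds log2 values of 30170 probes with column medians of 8.62 to 8.63. Each column had a Pearson's r of 0.9987 to 0.9998 with the log2 processed signal of its array, so genes were not centred. The steps behind the table are not stated. All 6 columns had the same maximum, 18.36, and the members' values were nearly those of quantile normalization, with Mcpt4 at 11.2 at ZT8 in both.

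Control spots were removed and spots of a probe averaged, giving 39429 probes, and log2 signal minus the 75th percentile of the array was used. Symbols came from RefSeq accessions of GRCm38.p6, used for names, and matched 27234 probes (69.1%). A probe was tested when at least a share of 0.5 of its spots were well above background on at least 3 arrays and no array had only outlier spots, and the brightest probe stood for a gene. The members were not tested between times; counts at 2-fold are set beside those over all genes. A 24 h cosine was fitted over all genes with limma 3.58.1 in R 4.3.3 (moderated F test, Benjamini-Hochberg over 24127 genes, threshold 0.05), a script tested on simulated data. Named genes were the members; genes of the other mast cell lists at least 2-fold from the median at ZT8, up to 5 a list by size, or otherwise the 2 brightest; and the 5 genes most like Mcpt4 and Cpa3. Others are named for what they encode, after their values were seen. Over 286 to 337 probes spotted 10 times, the median SD of a probe's spots was 0.05 to 0.09 log2 units, which covers spotting on an array and not the spread between pools. The number of arrays limits the precision. Alternatives were other scalings (quantile, median, the 75th percentile of probes detected on all arrays), normexp with an offset of 50, the authors' table, other filters, the mean of a gene's probes, the arrays of the ZT8 scan alone, and leaving out arrays.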

Additional observations from a re-analysis of the deposited data

How the results depend on the processing

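The count of tested members at least 2-fold above the median of the other arrays at ZT8 was 4 of 5 in the reported setting and 3 to 5 in 10 of 11 alternatives. Among the alternatives, quantile normalization and the authors' table gave nearly the same member values and are not separate checks. The 5 came without a background filter, out of all 7 members, and included Fcer1a, which could be seen only where it was high. With detection on all 6 arrays required the count was 2 of the 3 members left, since Cma1 and Cpa3 drop out. The same filter gave 2 of 3 for ZT0 and ZT8 as the 2 highest arrays, against 4 of 5. Other mast cell genes at least 2-fold above at ZT8 numbered 4 of 49. This was 10 of 49, beside 11.7% of all genes, with the 75th percentile of probes detected on all arrays. That scaling moved the median of all genes at ZT8 to 0.14. Within the scan of ZT8 the count was 19 of 49, beside 11.7% of all genes. Without the ZT0 array it was 7 of 49, beside 7.1% of all genes. With detection on all 6 arrays it was 2 of 33, beside 6.35% of all genes. Leaving out ZT0 and the 2-array pairing were chosen after the results were seen. The ZT8 difference of Mcpt4 ran from 3.47 to 4.21 log2 units over the alternatives, that of Cpa3 from 1.25 to 2.54, Tpsb2 from 0.93 to 1.54, Cma1 from 0.68 to 1.82 and Hdc from -0.42 to 0.52. The lowest values of Mcpt4, Cpa3 and Cma1 came with normexp; the cause was not tested. The limma cosine test called 0 genes in all 16 alternatives, with leave-one-out counts of 0 to 0; genes with an unadjusted p under 0.05 numbered 348 without ZT20 and 4028 without ZT8. No paired analysis was possible because each time point had 1 array. Dim signal limits Cma1, with upper limits on 3 arrays, Fcer1a, with upper limits on 4, and Ms4a2, detected on 0.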

Other observations

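The chymases Mcpt4 and Cma1 belong to a gene cluster with other serine proteases, and most of the tested neighbours peaked on other arrays than ZT8. So did most genes, since 5.89% of all genes tested were highest at ZT8. Of 15 listed genes of the cluster 10 were tested. At ZT8 Mcpt4 and Cma1 were the 2 at least 2-fold above the median of the other arrays (20%, beside 7.41% of all genes). This count supports nothing further, since Mcpt4 was selected on its ZT8 level and Cma1 passed the detection rule through ZT8. Cma2, a chymase-like neighbour, was also highest at ZT8, at -0.17, beside -0.33 at ZT20 and -2.15 at ZT0. Mcpt9, a protease first described in the mouse uterus, stood at -4.33, -4.35, -2.56, -2.64, -1.84 and -1.90 from ZT0 to ZT20, highest at ZT16 and ZT20. Ctsg, cathepsin G of neutrophil granules, was highest at ZT12 (-2.26), and Gzmb, granzyme B of cytotoxic lymphocytes, at ZT12 (-1.22) and ZT4 (-1.82). Gzmd, Gzmf, Gzmg, Gzmn and Mcpt8 were well above background on 0 arrays, so their courses are unknown. Tpsg1, a membrane tryptase, was at 0.86 at ZT4 and at -5.24 at ZT8, unlike Tpsb2.

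Factors that act on mast cells were also on the array. Il33, an alarmin sensed through Il1rl1, stood at 1.30, 3.03, 0.64, 3.11, -2.46 and -2.91 from ZT0 to ZT20, and Kitl, the ligand of Kit, was highest at ZT20 (-4.12). Neither was at least 2-fold above the median of the others at ZT8.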
